A study of Mus musculus with 7 samples.

Results

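The cells described here are the layer 6 corticothalamic neurons of the mouse cortex at postnatal day 2 (P2), 233 cells out of the 3283 kept cells of their library and of the 21002 kept cells of all 7 libraries. They were chosen by raw counts of unique molecular identifiers (UMIs, 1 per captured RNA molecule): Hs3st4 plus Syt6 at least 2, Tle4 at least 1, Neurod2 plus Neurod6 at least 2, Eomes at most 1 and Gad1 plus Gad2 at most 1. A kept cell had at least 500 detected genes and at most 10% of its UMIs in mitochondrial genes. The members were 7.10% of the kept cells (exact binomial 95% interval 6.24 to 8.03) and 12.9% (11.4 to 14.6) of the 1803 excitatory cells, meaning the members together with the 1570 other cells with at least 3 UMIs of Neurod2 plus Neurod6. The 1570 other cells were not limited in Eomes or in Gad1 plus Gad2. The rule selects for layer 6 genes, and 44 of the 233 members also had 2 or more UMIs of subplate and layer 6b genes.

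The series profiled the postnatal mouse brain by droplet single-cell RNA sequencing with the 10x Chromium 3' kit, to follow oligodendrocyte precursors over age. The groups used here are the P2 cortex library (CD1 mice, untreated as far as the labels say, tissue above the lateral ventricles with ventricular-subventricular zone, white matter and grey matter) and, for 1 comparison, the P7 SVZ library (C57BL/6 mice, dorsal and lateral ventricular-subventricular zone, cut out under a microscope). P7, P15 and P60 cortex libraries, P60 grey matter and P60 white matter, all CD1, were searched with the same rule. There is 1 library per age and region and the labels do not give the number of animals, so no comparison has a replicate check and no test was made.

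Corticothalamic neurons are the glutamatergic projection neurons of layer 6 that send their axons to the thalamus and shape its relay of sensory signals to the cortex. They are born early among cortical neurons, and in mice the transcription factors Tbr1 and Sox5 are known to hold down in them the program that Fezf2 and Bcl11b drive in the subcerebral neurons of layer 5. Below them lies layer 6b, the remnant of the subplate, whose early-born neurons share many genes with layer 6.

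The members held 3054340 UMIs in all, with a median of 12203 UMIs and 3872 genes per cell, against 20661825 UMIs, 12499 UMIs and 3708 genes for the other excitatory cells. Levels below are CPM, the UMIs of a gene summed over a pool of cells and scaled to a common pool total of 1e6, and ratios of levels stand in parentheses, each followed by its exact conditional 95% interval. These intervals cover counting error only, and not the spread between cells or animals. A gene was compared when its mean CPM over both pools was at least 10 and it took no part in the rule. "Higher" means a ratio of at least 2 and "lower" a ratio of at most 0.5. Against the other excitatory cells 8140 genes were compared, of which 414 were higher (5.09%) and 209 lower (2.57%), and the median ratio of all of them was 1.06.

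The genes of the rule chose the cells, so their values are a description. Hs3st4 plus Syt6 ranged over 2 to 21 UMIs in the members (median 6), Tle4 over 1 to 18 (median 4) and Neurod2 plus Neurod6 over 4 to 52 (median 18). The sums over the members were 267 CPM for Hs3st4, a heparan sulfate sulfotransferase, 241 CPM for Syt6, a synaptotagmin, and 338 CPM for Tle4, a Groucho corepressor, against 5.61, 2.76 and 12.5 CPM in the other excitatory cells.

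Crym, the fourth proposed marker and the only one outside the rule, was abundant in the members. It encodes mu-crystallin, a cytosolic protein that binds thyroid hormone, and lies on chromosome 7 from 120186380 to 120202111 on the minus strand (mm10, ENSMUSG00000030905). The summed level was 301 CPM in members and 11.2 CPM in the other excitatory cells, a ratio of 26.9 (23.2 to 31.2). In single cells the raw count ran over 0 to 25 UMIs in members with a median of 2, and 156 of 233 members had at least 1 UMI, against 51 of 1570 other excitatory cells. With every cell thinned to 5000 UMIs, 51.7% of members and 2.29% of other excitatory cells had a Crym UMI, against 0.452% of interneurons and 0% of endothelial and microglial cells (0 of 23 cells, which allows a share of up to 13.0%). The unthinned shares were 67.0% of members, 3.25% of other excitatory cells, 0.702% of interneurons and 0% of endothelial and microglial cells, at median depths of 12203, 12499, 8847 and 11352 UMIs. Crym was thus found in most but not all members. It was also found in deep-layer cells outside the rule, with a UMI in 8 of the 92 Bcl11b and Fezf2 cells (8.70%, unthinned) and in 4 of the 7 cells of the planned Fezf2 and Bcl11b pool, at 166 CPM, a pool too small to compare.

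Among the transcription factors of the layer 6 list, Foxp2 had the highest ratio. Foxp2, a forkhead factor on chromosome 6 from 14901349 to 15441977 (plus strand), stood at 108 CPM in members and 4.5 CPM in other excitatory cells, a ratio of 24 (19 to 30.6), with 146 of 233 members and 63 of 1570 other excitatory cells holding a UMI. Bcl11b, known as Ctip2, reached 208 CPM in members and 20.6 CPM in other excitatory cells (10.1, 8.91 to 11.4). Sox5 had 240.3 CPM in members and 30.5 CPM in other excitatory cells (7.87, 7.07 to 8.77). Fezf2 had 181 CPM in members and 29.7 CPM in other excitatory cells (6.09, 5.42 to 6.85). Tbr1 differed least of these factors, with 187 CPM in members and 69.5 CPM in other excitatory cells (2.69, 2.44 to 2.97) and at least 1 UMI in 198 of 233 members and 830 of 1570 other cells. Sox5 was the most widespread of them among the members, with at least 1 UMI in 210 of them, and Bcl11b and Fezf2 were found in 175 and 171. Bcl11b was also seen outside excitatory cells, with a UMI after thinning in 51.7% of members and 50.7% of interneurons.

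The list of 18 corticothalamic and layer 6 genes had 17 compared genes, of which 13 were higher and 2 lower in members, with a median ratio of 5.87. For all 8140 compared genes the median was 1.06, with 5.09% higher and 2.57% lower. Nxph3, a neurexophilin that binds alpha-neurexins, had 151 CPM in members and 9.39 CPM in other excitatory cells (16.1, 13.6 to 19.2). Grik3, a kainate receptor subunit, had 39.6 CPM in members and 3.05 CPM in other excitatory cells (13, 9.5 to 17.9). Ntsr1, the neurotensin receptor used to mark adult layer 6 corticothalamic neurons in mice, reached 43.9 CPM in members and 30.2 CPM in other excitatory cells (1.45, 1.19 to 1.75), short of the fold used, and Lmo3 likewise stood at 144 CPM in members and 115 CPM in other excitatory cells. The 2 lower genes were Sla, with 95.3 CPM in members and 209 CPM in other excitatory cells (0.455, 0.403 to 0.512), and Tle1, with 5.57 CPM in members and 58.8 CPM in other excitatory cells (0.0947, 0.055 to 0.152). Thsd7b was too low to be compared, at 3.27 CPM in members and 1.84 CPM in other excitatory cells.

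**Figure D1:**
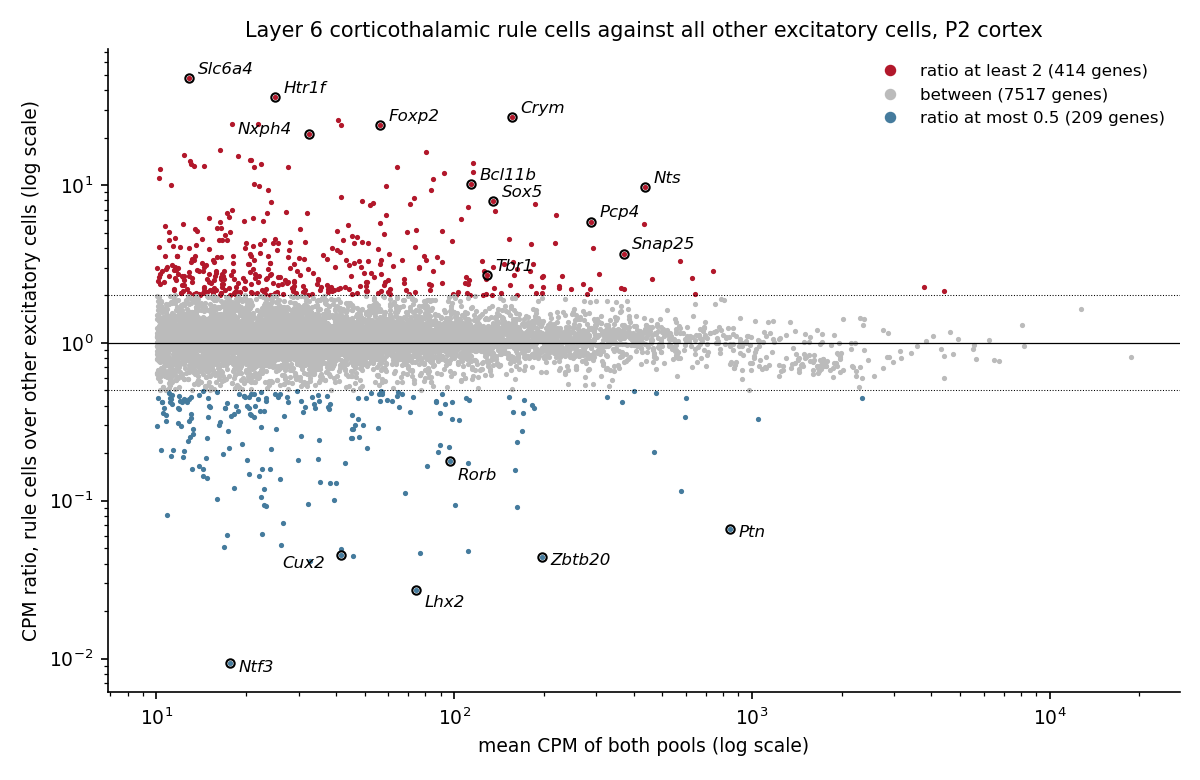
Ratio of the CPM in the 233 members over that in the 1570 other excitatory cells (y, log scale) against the mean CPM of both pools (x, log scale) for the 8140 compared genes. Red points are the 414 genes with a ratio of at least 2, blue points the 209 with at most 0.5, grey points the rest. Slc6a4 has the highest ratio, 47.4, and Ntf3 the lowest, 0.00934, while Crym, Bcl11b, Sox5, Pcp4 and Nts are high in both ratio and level.

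A pair of serotonin genes led the compared genes by ratio. Slc6a4, the serotonin transporter (chromosome 11, 76998603 to 77032340, plus strand, ENSMUSG00000020838), had 77 UMIs or 25.2 CPM in members and 11 UMIs or 0.532 CPM in the far larger pool of other excitatory cells, a ratio of 47.4 (25 to 98.8). It was found in 52 members and in 11 other excitatory cells, with no more than 4 UMIs in any member. Htr1f, a serotonin receptor (chromosome 16, 64924729 to 65105854, minus strand), had 48.8 CPM in members and 1.36 CPM in other excitatory cells (36, 23.9 to 56), and 99 members and 23 other cells carried it. After thinning, Slc6a4 was seen in 10.8% of members and 0.134% of other excitatory cells, and in none of the 221 interneurons or 23 endothelial and microglial cells. Slc6a4 overlaps the antisense gene Gm12343, which had no UMI in either pool.

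Further genes of the 15 with the highest ratios are given by name and not as a group. Igfbp3, which binds insulin-like growth factors, had 80.2 CPM in members and 3.34 CPM in other excitatory cells (24, 18.3 to 31.8). Nptx1, a neuronal pentraxin that clusters AMPA receptors, had 30.8 CPM in members and 1.84 CPM in other excitatory cells (16.7, 11.4 to 25.1).

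Gsg1l, an auxiliary subunit of AMPA receptors, had 42.2 CPM in members and 1.74 CPM in other excitatory cells (24.2, 16.6 to 36.1). Kctd12 and Kctd8, auxiliary subunits of GABA-B receptors, had 119 and 35.4 CPM in members against 9.15 and 2.32 CPM in other excitatory cells (13, 10.9 to 15.6, for Kctd12 and 15.2, 10.7 to 21.9, for Kctd8). Kctd12 was also seen outside neurons, with a UMI after thinning in 40.1% of members and 56.5% of endothelial and microglial cells, and unthinned in 71.2% and 59.4%. Ppp1r1b, the dopamine-regulated phosphatase inhibitor DARPP-32, reached 214 CPM in members and 17.7 CPM in other excitatory cells (12.1, 10.6 to 13.8). Rprml, a relative of the p53 target reprimo, had 216 CPM in members and 15.6 CPM in other excitatory cells (13.8, 12.1 to 15.8). Tmem159, a lipid droplet protein, had 34.4 CPM in members and 1.4 CPM in other excitatory cells (24.5, 16.1 to 38.3).

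Genes of the upper layers were low in the members. Of 13 upper-layer callosal genes 12 were compared and all 12 were lower, with a median ratio of 0.188. The share of lower genes over all 8140 compared genes was 2.57% (median ratio 1.06). Lhx2, a LIM homeobox factor, had only 12 UMIs in the members, 3.93 CPM against 145 CPM in the other excitatory cells (ratio 0.0271, 0.014 to 0.0473). Cux2 had 3.6 CPM in members and 79.8 CPM in other excitatory cells (0.0452, 0.0225 to 0.081). Inhba, the activin beta-A chain, had 3.93 CPM in members and 87.6 CPM in other excitatory cells (0.0448, 0.0231 to 0.0785). Unc5d, a netrin receptor, had 2.62 CPM in members and 49.9 CPM in other excitatory cells (0.0525, 0.0226 to 0.104). Lmo4, with 216 CPM in members and 514 CPM in other excitatory cells (0.419, 0.387 to 0.454), was the nearest of the 12 to the fold used. Plxnd1 was not compared, at 10.8 CPM in members and 7.6 CPM in other excitatory cells.

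Growth factors and other regulators stood beside them among the 15 lowest genes. Ntf3, neurotrophin-3, had 1 UMI in all members together, or 0.327 CPM, against 35 CPM in the other excitatory cells (ratio 0.00934, 2.36e-04 to 0.0522). Ptn, the secreted heparin-binding factor pleiotrophin, had 104 CPM in members and 1581 CPM in other excitatory cells (0.0661, 0.059 to 0.0738), and 97 of 233 members and 1492 of 1570 other cells had at least 1 UMI of it. Fst, the activin antagonist follistatin, had 2.62 CPM in members and 42.4 CPM in other excitatory cells (0.0617, 0.0266 to 0.122). Both Inhba and its antagonist Fst were therefore near absent in members. The transcription factors Zbtb20, with 16.7 CPM in members and 377 CPM in other excitatory cells (0.0442, 0.0329 to 0.0582), Pou3f1 with 10.1 CPM in members and 212 CPM in other excitatory cells (0.0479, 0.0325 to 0.068), Bhlhe22 with 27.2 CPM in members and 297 CPM in other excitatory cells (0.0915, 0.0728 to 0.114) and Pou3f2 with 17.4 CPM in members and 184 CPM in other excitatory cells (0.0941, 0.0703 to 0.123) were lower as well. The chemokine-like genes Fam19a2 and Fam19a1, the small heat shock gene Hspb3 and 2900055J20Rik completed the 15, with 1.64 to 6.88 CPM in members and 32 to 147 CPM in the other excitatory cells.

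Layer 5 genes went both ways, and the compared layer 4 genes were lower. Of 11 layer 5 subcerebral genes 7 were compared, with 3 higher and 2 lower and a median ratio of 1.45. Over all 8140 compared genes 5.09% were higher and 2.57% lower, at a median ratio of 1.06. S100a10 had 380.1 CPM in members and 58.9 CPM in other excitatory cells (6.46, 5.95 to 7.01). The ETS factor Etv1 had 96.6 CPM in members and 19.6 CPM in other excitatory cells (4.92, 4.22 to 5.72), while Ldb2 and Crim1 lay between the limits at ratios of 1.39 (1.23 to 1.57) and 1.45 (1.08 to 1.93). Tcerg1l and Vat1l were not compared, with 1 and 3 UMIs in all members. The nuclear receptor gene Rorb, which marks layer 4, had 29.1 CPM in members and 164 CPM in other excitatory cells (0.178, 0.143 to 0.22). Thsd7a had 2.95 CPM in members and 28.9 CPM in other excitatory cells (0.102, 0.0463 to 0.195). These were the 2 compared genes of 6 on the layer 4 list.

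Relatives of the rule's own genes went both ways. Of the other Groucho genes, Tle3 stood at 1.96 CPM in members and 32.6 CPM in other excitatory cells (0.0602, 0.022 to 0.132) and Tle1 was lower too, as given above, while the short relative Aes reached 253 CPM in members and 295 CPM in other excitatory cells (0.858, 0.795 to 0.924), so that Tle4 was not accompanied by Tle1 or Tle3. Of 8 compared synaptotagmins 3 were higher, led by Syt13 with 18 CPM in members and 4.02 CPM in other excitatory cells (4.48, 3.13 to 6.38), and 1 was lower, Syt4 with 158 CPM in members and 777 CPM in other excitatory cells (0.203, 0.185 to 0.222). Of 11 compared heparan sulfate enzymes 2 were higher, Hs3st5 with 39.9 CPM in members and 9.29 CPM in other excitatory cells (4.3, 3.4 to 5.42) and the sulfatase Sulf2 with 42.2 CPM in members and 14.1 CPM in other excitatory cells (3.0, 2.42 to 3.7). The 6-O-sulfotransferase Hs6st2 was the lower one, at 47.5 CPM in members and 132 CPM in other excitatory cells (0.359, 0.302 to 0.425). Median ratios were 1.45 for the synaptotagmins and 1.13 for the enzymes, beside 1.06 over all 8140 compared genes. Of all those genes 5.09% were higher and 2.57% lower.

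Other genes that handle thyroid hormone are given beside Crym. Thra, the main thyroid hormone receptor of the developing brain, had 1012 CPM in members and 909 CPM in other excitatory cells (1.11, 1.07 to 1.16), and Thrb 2.29 CPM in members and 3.34 CPM in other excitatory cells. Klf9, a target of the hormone, reached 147 CPM in members and 75.8 CPM in other excitatory cells (1.94, 1.74 to 2.15). Of the 11 genes on this list 4 were compared. The deiodinase genes Dio1, Dio2 and Dio3 had no UMI in any member, which allows up to 0.982 CPM each.

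**Figure D2:**
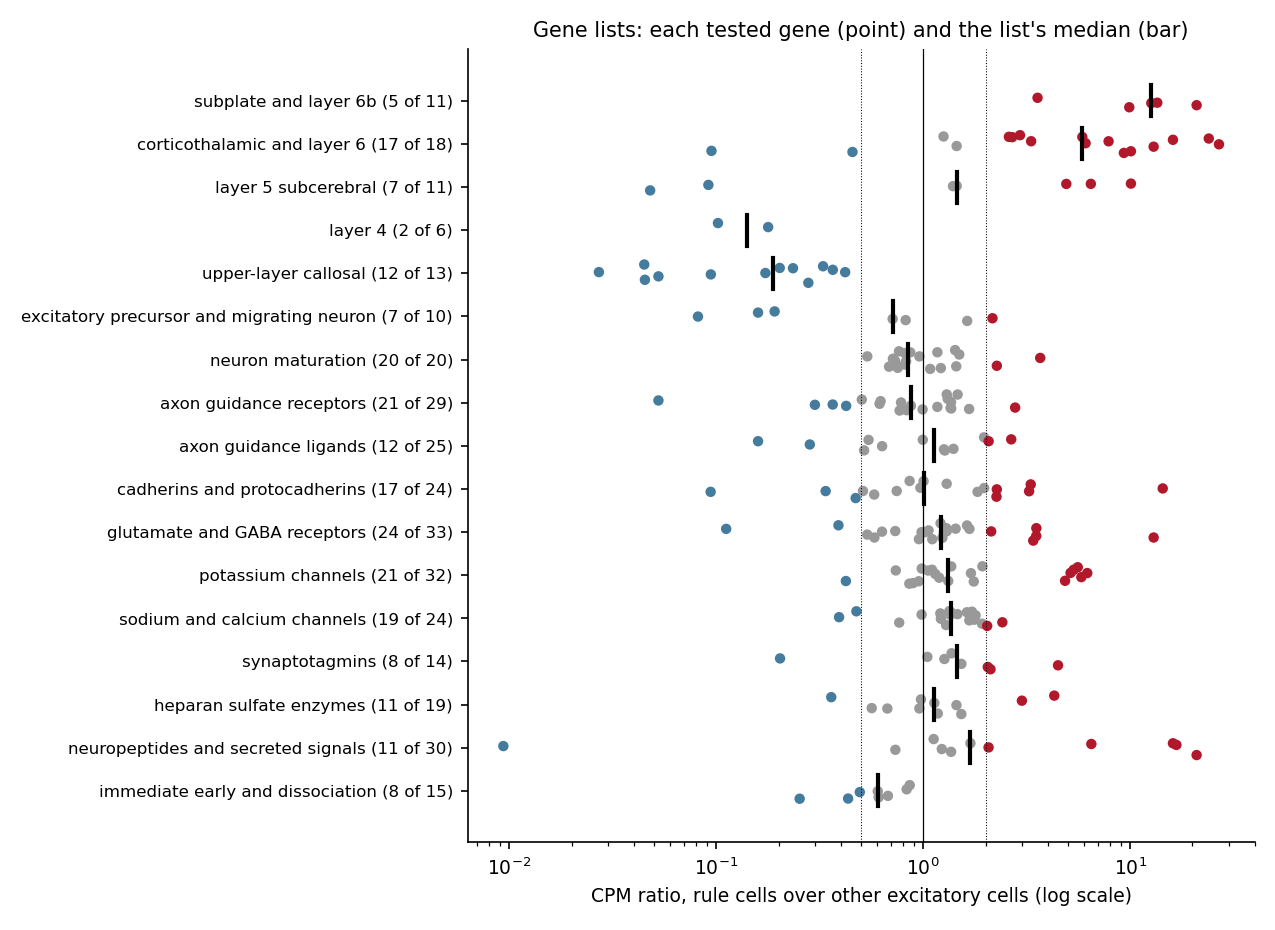
Each point is 1 compared gene of a list, placed by its CPM ratio of members over other excitatory cells (x, log scale, dotted lines at 0.5 and 2), with red at least 2, blue at most 0.5 and grey between. The black bar is the list's median, and the numbers beside each name are genes compared of genes listed. The 5 subplate genes and 13 of 17 corticothalamic genes lie right of 2, and all 12 upper-layer genes lie left of 0.5.

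Some genes of excitability and synaptic signalling were higher in the members and some lower. Over all 8140 compared genes 5.09% were higher and 2.57% lower, at a median ratio of 1.06. Of 21 compared potassium channel genes 6 were higher and 1 lower, with a median ratio of 1.32. Kcnk1, a leak channel, had 125 CPM in members and 24.2 CPM in other excitatory cells (5.15, 4.5 to 5.9). Kcnip2, a partner of Kv4 channels, had 74.3 CPM in members and 13.3 CPM in other excitatory cells (5.58, 4.66 to 6.68). Kcna1, the Kv1.1 channel, had 27.8 CPM in members and 4.79 CPM in other excitatory cells (5.81, 4.29 to 7.84). Of 19 compared sodium and calcium channel genes 2 were higher and 2 lower, with a median ratio of 1.36. Of 24 compared glutamate and GABA receptor genes 5 were higher and 2 lower, with a median ratio of 1.23. Beside Grik3 they were led by the NMDA receptor subunit Grin3a at 24.9 CPM in members and 7.07 CPM in other excitatory cells (3.52, 2.63 to 4.68), and the AMPA receptor subunit Gria3 at 42.9 CPM in members and 12.2 CPM in other excitatory cells (3.52, 2.83 to 4.36). Gabra2, a GABA-A receptor subunit, was the lowest of this list at 13.8 CPM in members and 123 CPM in other excitatory cells (0.112, 0.0802 to 0.151).

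Adhesion and guidance genes were split, beside 5.09% higher and 2.57% lower (median 1.06) over all 8140 compared genes. Cdh9, a type II cadherin, had 39 CPM in members and 2.71 CPM in other excitatory cells (14.4, 10.4 to 20.1), the highest of 17 compared cadherins and protocadherins, of which 5 were higher and 3 lower (median 1.0). Pcdh8 was the lowest at 3.93 CPM in members and 41.9 CPM in other excitatory cells (0.0938, 0.0483 to 0.165). Of 21 compared guidance receptors 1 was higher, Ephb1 with 77.3 CPM in members and 27.8 CPM in other excitatory cells (2.78, 2.38 to 3.24), and 4 were lower, among them Plxna4 with 38 CPM in members and 104 CPM in other excitatory cells (0.365, 0.30 to 0.44) and Epha4 with 58.6 CPM in members and 138 CPM in other excitatory cells (0.424, 0.362 to 0.493), at a list median of 0.872. Of 12 compared guidance ligands 2 were higher, Sema6a and Sema6d at ratios of 2.66 (2.09 to 3.38) and 2.07 (1.51 to 2.81), and 2 lower, Sema3c and Efnb2 at ratios of 0.159 (0.0953 to 0.25) and 0.283 (0.215 to 0.366), at a median of 1.13.

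Secreted signals included the neurexophilins and Nptx1 already given. Of 11 compared neuropeptides and secreted signals 5 were higher and 1 lower (median 1.69). The shares over all 8140 compared genes were 5.09% and 2.57% (median 1.06). Wnt7b had 102 CPM in members and 15.8 CPM in other excitatory cells (6.49, 5.54 to 7.61), while Cck, cholecystokinin, was abundant in both pools at 358 CPM in members and 487 CPM in other excitatory cells (0.734, 0.688 to 0.781). Cortical area factors gave 2 higher and 3 lower of 8 compared genes (median 0.877).

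Most markers of neuronal age lay close together in members and other excitatory cells. Their counts stand beside 5.09% higher and 2.57% lower (median 1.06) over all 8140 compared genes. Of 20 maturation genes all were compared, and 2 were higher, Snap25 of the synaptic vesicle machinery with 583 CPM in members and 159 CPM in other excitatory cells (3.68, 3.47 to 3.9) and the neurofilament gene Nefl with 53.7 CPM in members and 23.7 CPM in other excitatory cells (2.27, 1.89 to 2.71). The median ratio of the list was 0.846, and the immature-neuron factors Sox4 and Sox11 had ratios of 0.753 (0.721 to 0.786) and 0.732 (0.70 to 0.765). Of 7 compared genes of precursors and migrating neurons 3 were lower, Neurod1, Sema3c and Insm1, and 1 was higher, the somatostatin receptor Sstr2 with 52.7 CPM in members and 24.4 CPM in other excitatory cells (2.16, 1.8 to 2.59). The rule allowed members at most 1 Eomes UMI, and the other excitatory cells had no such limit. Cells with more Eomes could thus sit in that pool only, and their part in these values was not tested. The vesicular glutamate transporter Slc17a7 was seen in 28% of members and 7.13% of other excitatory cells after thinning and in 0.452% of interneurons, while Slc17a6 was seen in 3.88% of members, 13.8% of other excitatory cells and none of the interneurons. Unthinned, the shares were 46.8% of members and 15.4% of other excitatory cells for Slc17a7, and 10.7% and 26.6% for Slc17a6. The transporter of mature cortical neurons was thus found in the larger share of the members, and the early transporter Slc17a6 in the larger share of the other excitatory cells. This was not particular to the members. The 92 Bcl11b and Fezf2 cells had 70.5 CPM of Slc17a7 and 10.3 CPM of Slc17a6, beside 67.1 and 10.5 CPM in members. Against those cells 0 of 20 maturation genes were higher in members and 1 was lower, with a median ratio of 0.83. Immediate early and dissociation genes, which record handling as well as activity, were lower in members for 3 of 8 compared genes, with Fos at 19.3 CPM in members and 76.4 CPM in other excitatory cells (0.253, 0.192 to 0.328) and a list median of 0.606. Their part in the other results was not tested.

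RNA of other cell types was scarce in the members. The 7 microglial genes summed to 1.64 CPM in members and 9.34 CPM in other excitatory cells, the 6 endothelial and mural genes to 4.91 CPM in members and 4.74 CPM in other excitatory cells, and the 5 oligodendrocyte precursor genes to 8.84 CPM in members and 18.3 CPM in other excitatory cells. The microglial genes C1qa, C1qb and P2ry12 were at 0 in members. The 10 astrocyte and radial glia genes summed to 168 CPM in members and 316 CPM in other excitatory cells, with the glutamate transporter Slc1a2, which neurons can also carry, higher at 57 CPM in members and 15.7 CPM in other excitatory cells (3.62, 3.0 to 4.37). Among 11 interneuron genes Npy alone was abundant, with 377 CPM in members and 306 CPM in other excitatory cells (1.23, 1.15 to 1.31), while the other 10 were too low to be compared and Lhx6 stood at 0.655 and Dlx1 at 0.982 CPM in members. Npy, neuropeptide Y, was seen in 38.4% of thinned members, 21.7% of interneurons and 0 of 23 endothelial and microglial cells. Of 5 Cajal-Retzius genes Calb2 alone was compared, with 3.93 CPM in members and 24.6 CPM in other excitatory cells (0.159, 0.0819 to 0.281), and of 7 cell cycle genes Pcna alone, with 19.3 CPM in members and 17.4 CPM in other excitatory cells (1.11, 0.829 to 1.47). The doublet caller marked 5 of 233 members (2.15%) and 25 of 1570 other excitatory cells (1.59%). The library shared at most 28 barcodes with any other library, and no barcode was a rule cell in both. Whether a shared barcode was a rule cell in P2 cortex alone was not checked.

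Cells at the edge of the rule are described by their values. In the 27 members with exactly 2 UMIs of Hs3st4 plus Syt6 the levels were 195 CPM for Crym and 56.5 CPM for Foxp2, and in the 25 members with exactly 1 Tle4 UMI they were 349 and 124 CPM. Just outside, 25 cells that missed the rule only by having 1 UMI of Hs3st4 plus Syt6 had 220 CPM of Crym and 60.7 CPM of Foxp2, close to the members just inside. The 116 cells with Tle4 but no UMI of Hs3st4 or Syt6 had 12.2 and 3.38 CPM, and the 23 cells without Tle4 had 82.4 and 51.5 CPM beside 326 CPM of Rorb. The pool of other excitatory cells thus held some cells with Crym and Foxp2 near the level of the members just inside the rule. Against only those other excitatory cells with no UMI of Hs3st4, Syt6 or Tle4, the ratio was 88.3 (68 to 117) for Crym, 42.3 (30.9 to 59.2) for Foxp2, 26.1 (21.7 to 31.6) for Bcl11b, 95.6 (49 to 213) for Htr1f and 185 (70.4 to 688) for Cplx3. With the rule applied after thinning to 5000 UMIs, which left 144 members, the ratios were 18.5 (8.51 to 42.4) for Slc6a4, 9.92 (6.22 to 15.8) for Htr1f, 15.6 (12.8 to 19.1) for Crym and 10.8 (7.71 to 15.1) for Foxp2, smaller than above but still far past the fold. A stricter rule of at least 4 UMIs of Hs3st4 plus Syt6 and 2 of Tle4 gave 25.1 (15.6 to 41.7) for Slc6a4, 15.6 (13.9 to 17.7) for Crym, 13.8 (11.4 to 16.9) for Foxp2 and 3.79 (3.32 to 4.31) for Fezf2. The 158 members that met it had 325 CPM of Crym, 114 CPM of Foxp2 and 148 CPM of Fezf2. All members had 301, 108 and 181 CPM. Under both rules the comparison pool changed too, since cells left out counted as other excitatory cells if their Neurod2 plus Neurod6 count sufficed.

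Another 3 narrower pools of P2 excitatory cells, each without Hs3st4 or Syt6 and each chosen by other layer genes, were compared with the members in turn. The first held 251 cells with at least 2 UMIs of Rorb and no Fezf2, the second 245 cells with at least 2 UMIs of Cux1 plus Cux2, among other criteria, but no Rorb or Fezf2, and the third 92 cells with at least 2 UMIs of Bcl11b plus Fezf2 and at most 1 of Tle4, which was defined after the data were seen because the planned pool of Fezf2 and Bcl11b cells had 7 cells. Median depths were 14828, 15152 and 19139.5 UMIs, above the 12203 of the members, and the genes that chose a pool were left out of its comparison.

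Against the Rorb cells 8108 genes were compared, with 493 higher (6.08%) and 274 lower (3.38%) in members and a median ratio of 1.07. Crym had 918 UMIs in the members and 1 in the Rorb cells, 301 CPM in members and 0.262 CPM in Rorb cells, with a ratio of 1148 and an interval of 206 to 45405. Bcl11b stood at 208 CPM in members and 1.31 CPM in Rorb cells (159, 67.6 to 490.2), Etv1 at 96.6 CPM in members and 2.62 CPM in Rorb cells (36.9, 19.8 to 77.8), and Sox5 at 240.3 CPM in members and 22 CPM in Rorb cells (10.9, 8.71 to 13.9). The lowest was Ostn, osteocrin, with no UMI in members and 36.9 CPM in Rorb cells. Its ratio was 0.0266 with 3 UMIs set for the members, and the upper bound of its exact interval was 0.0332. Also among the lowest were Inhba with 3.93 CPM in members and 201 CPM in Rorb cells (0.0195, 0.0101 to 0.0343) and Lhx2 with 3.93 CPM in members and 181 CPM in Rorb cells (0.0217, 0.0112 to 0.0381). The guidance receptors Nrp1, at 73.7 CPM in members and 17 CPM in Rorb cells (4.33, 3.27 to 5.8), and Ephb1, at 77.3 CPM in members and 14.4 CPM in Rorb cells (5.37, 3.99 to 7.34), led the 5 of 21 compared receptors that were higher. Of the layer 6 list 12 of 16 compared genes were higher and 2 lower (median 9.14).

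Against the Cux cells 7996 genes were compared, with 660 higher (8.25%) and 221 lower (2.76%) in members and a median ratio of 1.09. Bcl11b had 634 UMIs in members and 2 in these cells, a ratio of 385 with an interval of 106 to 3185. Pcp4, a calmodulin-binding peptide, had 492 CPM in members and 6.47 CPM in Cux cells (76.1, 50.9 to 119). Ptn stood at 104 CPM in members and 2131 CPM in these cells (0.049, 0.0437 to 0.0548) and Fam19a2 at 6.88 CPM in members and 213 CPM in Cux cells (0.0322, 0.0198 to 0.0496). Of the channel genes, 9 of 20 compared potassium channel genes and 6 of 18 sodium and calcium channel genes were higher (medians 1.68 and 1.59). Kcnab1 led with 36.3 CPM in members and 2.7 CPM in Cux cells (13.5, 7.06 to 28.9), and Scn2a, the main sodium channel of young excitatory neurons, had 211 CPM in members and 84.7 CPM in Cux cells (2.49, 2.18 to 2.86).

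Against the Bcl11b and Fezf2 cells 8199 genes were compared, with 341 higher (4.16%) and 277 lower (3.38%) in members and a median ratio of 1.06. Crym had 301 CPM in members and 26.4 CPM in these cells (11.4, 8.47 to 15.7). Foxp2 had 108 CPM in members and 10.3 CPM in Bcl11b and Fezf2 cells (10.5, 6.52 to 17.9). Tbr1 had 187 CPM in members and 49.3 CPM in Bcl11b and Fezf2 cells (3.8, 3.02 to 4.82). Sox5 had 240.3 CPM in members and 42.4 CPM in Bcl11b and Fezf2 cells (5.66, 4.45 to 7.29). Rprm, the cell cycle gene reprimo, had 880.1 CPM in members and 265 CPM in all other excitatory cells (3.32, 3.17 to 3.48), but lay level here with 880.1 CPM in members and 841 CPM in Bcl11b and Fezf2 cells (1.05, 0.981 to 1.12). Lower in members were Fam19a1 with 2.62 CPM in members and 203 CPM in Bcl11b and Fezf2 cells (0.0129, 0.00553 to 0.0257), Lhx2 with 3.93 CPM in members and 148 CPM in Bcl11b and Fezf2 cells (0.0266, 0.0135 to 0.0472) and the layer 5 gene Tcerg1l with 1 UMI against 57 (0.010, 2.49e-04 to 0.0581). Protocadherins and cadherins were lower for 7 and higher for 3 of 18 compared genes (median 0.642), with Cdh8 at 16 CPM in members and 64.2 CPM in these cells (0.25, 0.175 to 0.352). Channel genes differed less here than against the Cux cells. Of 22 compared potassium channel genes 7 were higher and 4 lower (median 1.08). Of 19 sodium and calcium channel genes 0 were higher and 2 lower (median 1.05). The mitotic gene Ube2c had 4 UMIs in members and 78 in this small pool, so some of its cells carried cell cycle RNA, whose part in the comparison was not tested.

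**Figure D3:**
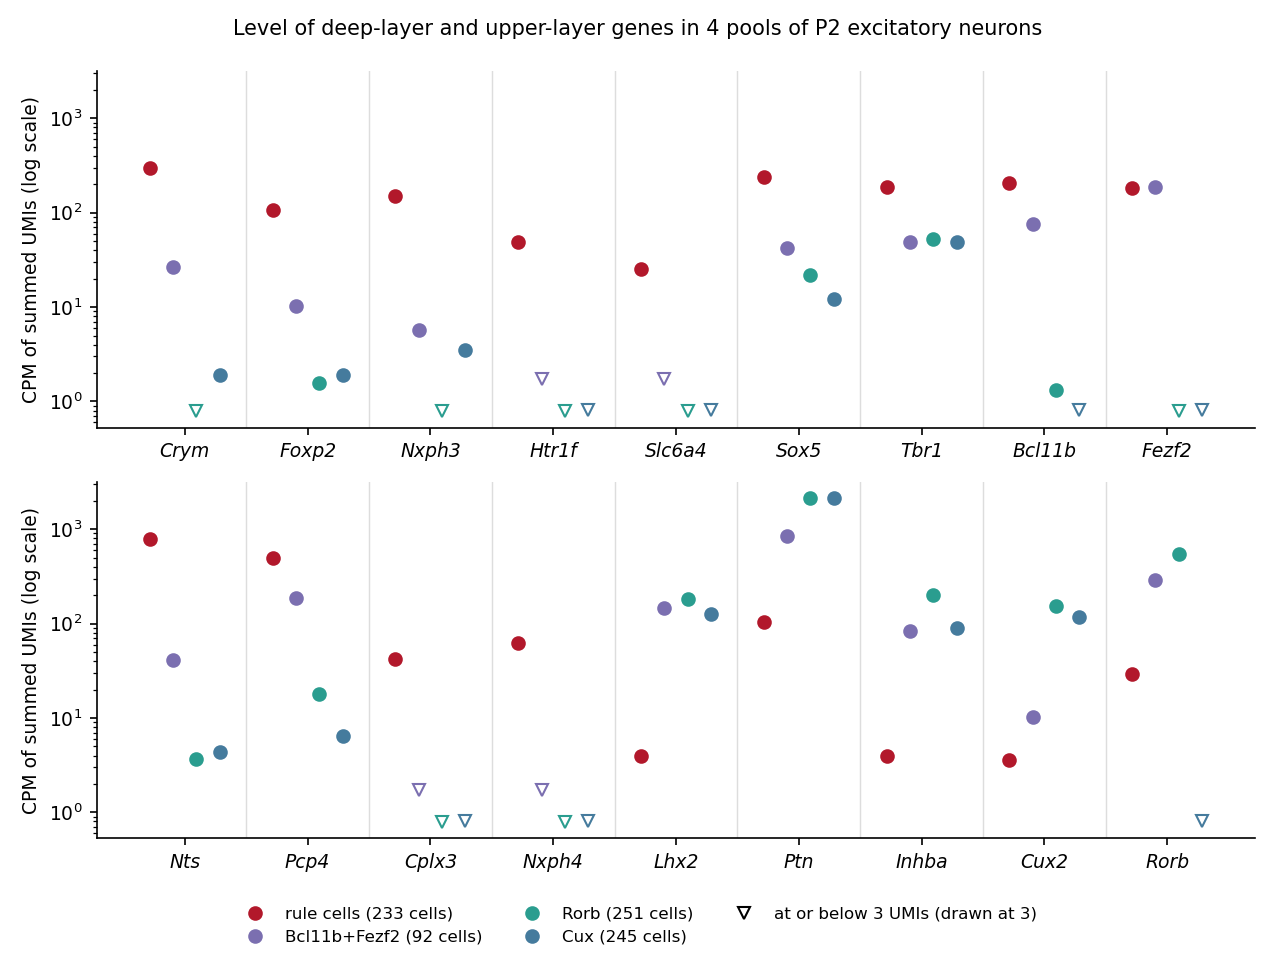
CPM of summed UMIs (y, log scale) of 18 genes in the members (red) and in the 3 narrower pools, where open triangles stand at the level of 3 UMIs for genes at or below it. Fezf2, Bcl11b, Rorb and Cux2 helped to choose pools, so their positions in those pools are a description. Members stand above all 3 pools for Crym, Foxp2, Nxph3, Sox5, Tbr1, Nts and Pcp4, and below all 3 for Lhx2, Ptn, Inhba and Cux2.

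The members were not uniform, and the subplate list showed this first. Of 11 subplate and layer 6b genes 5 were compared and all 5 were higher in members than in other excitatory cells, with a median ratio of 12.7. The share of higher genes over all 8140 compared genes was 5.09% (median ratio 1.06). Nxph4, a neurexophilin, had 61.9 CPM in members and 2.95 CPM in other excitatory cells (21, 15.6 to 28.5). Cplx3, a complexin, had 41.9 CPM in members and 3.1 CPM in other excitatory cells (13.5, 9.95 to 18.6). Ctgf, a matricellular growth factor, had 19 CPM in members and 1.5 CPM in other excitatory cells (12.7, 8.05 to 20.3). The nuclear receptor Nr4a2 had 28.2 CPM in members and 7.89 CPM in other excitatory cells (3.57, 2.72 to 4.66). Drd1, the D1 dopamine receptor, had 40.3 CPM in members and 4.07 CPM in other excitatory cells (9.91, 7.45 to 13.2). Several of these values rest on few cells, since Cplx3 was found in 17 members and Nr4a2 in 21. Nxph4 was more widespread, with a UMI in 96 of 233 members and 45 of 1570 other excitatory cells (unthinned). With the rule applied after thinning, the ratio was 5.41 (3.54 to 8.16) for Nxph4, 3.08 (1.11 to 7.46) for Cplx3 and 0.654 (0.206 to 1.6) for Nr4a2, and Ctgf had no UMI in members. Among members without subplate UMIs the ratio of Nr4a2 was 0.98 (0.511 to 1.72). Cplx3, Nxph4, Ctgf and Moxd1 together gave 0 UMIs in 134 members, 1 UMI in 55 and 2 or more in 44 (18.9%), with up to 43 UMIs in 1 cell. The rule therefore took in cells with markers of layer 6b as well as of layer 6, and the label of corticothalamic neurons is not shown for the 44.

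The 44 members with 2 or more subplate UMIs differed from the 134 with none in 251 higher (3.08%) and 227 lower (2.79%) of 8148 compared genes, at nearly equal median depth (12662.5 and 11873 UMIs). Nr4a2 stood at 103 CPM in the 44 cells and 7.73 CPM in the 134 (13.3, 7.29 to 26.2), Cryab, a small heat shock protein of the lens and nerve tissue, at 341 CPM in the 44 and 52.3 CPM in the 134 (6.52, 5.08 to 8.43), and Pcp4 at 1196 CPM in the 44 and 222 CPM in the 134 (5.38, 4.75 to 6.1). Hs3st6, a relative of Hs3st4, had 32 UMIs in the 44 cells and none in the 134, and Cacna2d3, a calcium channel subunit, 28 and none. With 3 UMIs set for the 134 the ratios were 26.7 and 23.4, and the lower bounds of the exact intervals were 20.5 and 17.8. Crym was lower, with 134 CPM in the 44 cells and 403 CPM in the 134 (0.333, 0.264 to 0.415), and Nts, the neuropeptide neurotensin, had 1 UMI against 2369 (0.00106, 2.68e-05 to 0.0059). Bcl11b, Tbr1, Sox5 and Foxp2 did not pass the fold, at ratios of 1.08 (0.88 to 1.32), 1.06 (0.855 to 1.3), 1.06 (0.873 to 1.27) and 1.25 (0.946 to 1.65). Fezf2 stood close to the limit (0.501, 0.377 to 0.657). The 44 cells thus differed in Crym, neurotensin, Nr4a2 and Pcp4, and less in the layer 6 transcription factors.

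Neurotensin RNA lay in few cells. It had 792 CPM in members and 81.6 CPM in other excitatory cells, but 31 of 233 members (13.3%) had 10 or more Nts UMIs and held 98.1% of all Nts UMIs of the members, with up to 290 UMIs in 1 cell and a median of 0. Among the other excitatory cells 30 of 1570 (1.91%) had 10 or more. After thinning, 34 of 232 members had 2 or more Nts UMIs. Foxp2 was found in 4 of those 34 (11.8%) and in 79 of the other 198 members (39.9%), the subplate group in 1 (2.94%) and in 61 (30.8%), and Crym in 29 (85.3%) and in 91 (46.0%). All of these cells come from 1 library, so the shares describe it and were not tested.

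Members were next split by Crym. The 125 members with 2 or more Crym UMIs and the 77 with none differed by 131 higher (1.6%) and 163 lower (1.99%) of 8185 compared genes. Nts had 1414 CPM in members with Crym and 6.13 CPM in those without (231, 106 to 629). Ikzf2, the zinc finger factor Helios, had 65.8 CPM in members with Crym and 3.07 CPM in those without (21.5, 7.16 to 106). Slc6a4 had 41.1 CPM in members with Crym and 6.13 CPM in those without (6.71, 2.93 to 18.9). St6galnac5, a sialyltransferase, had 86.4 CPM in members with Crym and 11.2 CPM in those without (7.68, 4.17 to 15.7). Lower in members with Crym were Cplx3 at 3.53 CPM in members with Crym and 79.7 CPM in those without (0.0442, 0.0158 to 0.101), Cryab at 24.1 CPM in members with Crym and 223 CPM in those without (0.108, 0.0755 to 0.152) and Npy at 179 CPM in members with Crym and 732 CPM in those without (0.245, 0.214 to 0.28). Median depths were 13179 UMIs in members with Crym and 11179 in those without.

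Foxp2 gave the last split. The 92 members with 2 or more Foxp2 UMIs and the 87 with none differed by 102 higher (1.25%) and 166 lower (2.03%) of 8168 compared genes, at median depths of 12479.5 and 11802 UMIs. Npy had 523 CPM in members with Foxp2 and 233 CPM in those without (2.24, 1.94 to 2.6). Trbc2 had 197 CPM in members with Foxp2 and 62 CPM in those without (3.17, 2.42 to 4.2). Trbc2 is annotated as a constant segment of the T cell receptor, and 125 CPM of it stood in all members against 16.6 CPM in other excitatory cells. Lower in members with Foxp2 were Nts at 103 CPM in members with Foxp2 and 1579.7 CPM in those without (0.0651, 0.0539 to 0.0781), the zinc finger factor Tshz2 at 9.88 CPM in members with Foxp2 and 132 CPM in those without (0.0748, 0.0378 to 0.135) and Ctgf at 5.76 CPM in members with Foxp2 and 39 CPM in those without (0.148, 0.0562 to 0.331). Crym itself differed by less than the fold between them (0.684, 0.588 to 0.795).

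**Figure D4:**
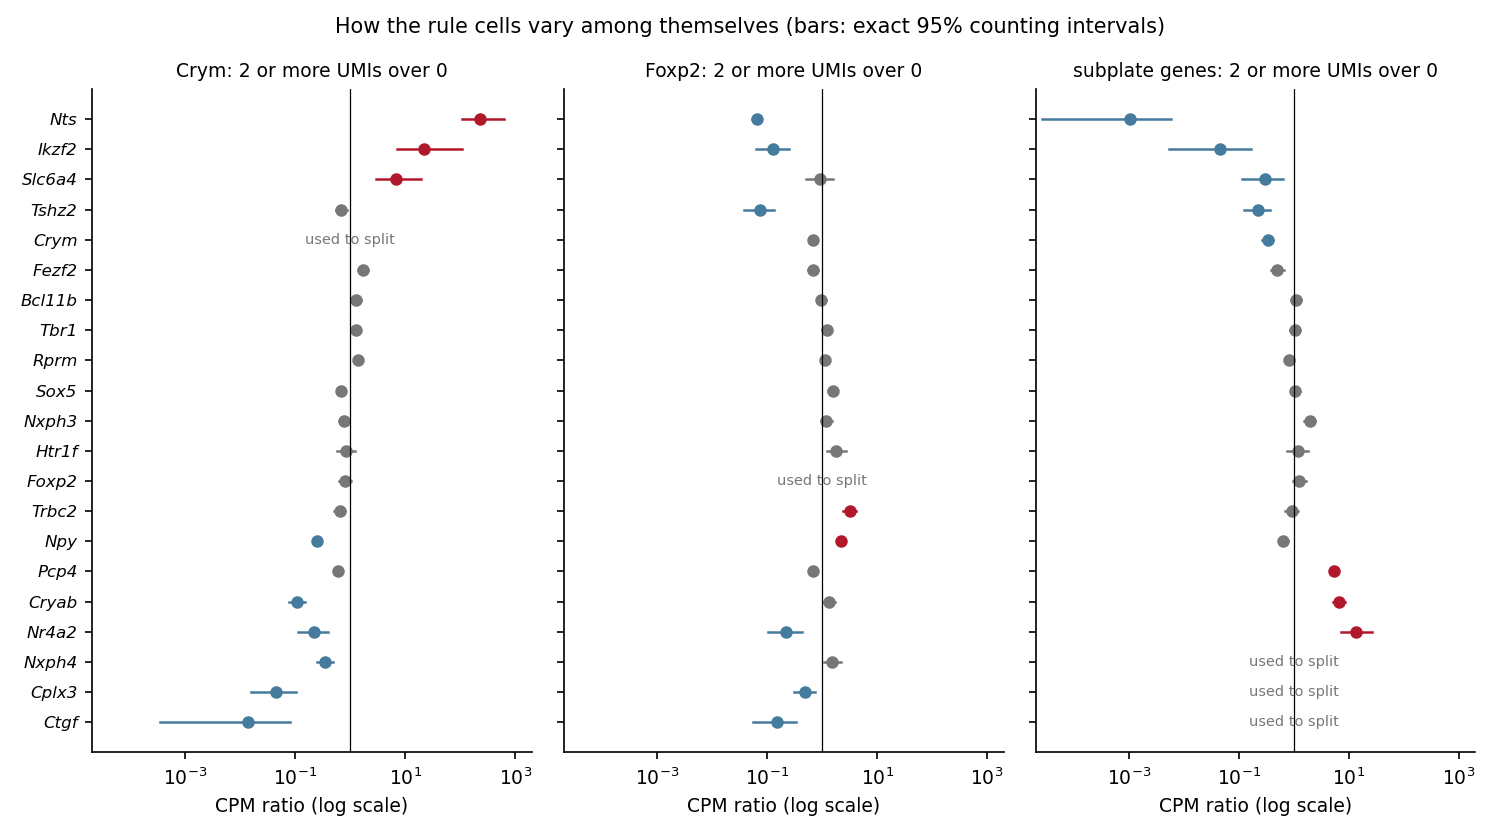
CPM ratio (x, log scale) of 21 genes (rows) between members with 2 or more UMIs of a gene or gene group and members with none, for Crym (125 against 77 cells), Foxp2 (92 against 87) and the subplate group (44 against 134). Red is at least 2, blue at most 0.5 and grey between, lines are exact 95% counting intervals, and genes that made a split are marked as such. Nts, Ikzf2 and Slc6a4 go with Crym and against the subplate group, while Bcl11b, Tbr1 and Rprm stay near 1 in all 3 panels.

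The same rule found few cells in the other cortex libraries. It took 6 of 4140 kept cells at P7, 17 of 2867 at P15 and 21 of 3115 at P60, or 0.145, 0.593 and 0.674%, and none in P60 grey matter or white matter (exact 95% upper bounds 0.196 and 0.185% of cells). Excitatory neurons of any kind were also few there, at 107, 83 and 111 cells by the same Neurod2 and Neurod6 count. Sums over so few cells are shown as values: Crym had 301, 718, 272 and 131 CPM in the rule cells of P2, P7, P15 and P60 cortex, Tbr1 187, 208, 170 and 482 CPM, Slc17a7 67.1, 134, 1392 and 1685 CPM, and Nts 792, 2080 and 154 CPM at P2, P7 and P15, with no UMI at P60. Slc17a7 was thus at its lowest at P2 and Crym at its lowest at P60 in this series of single libraries.

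The P7 SVZ library held 177 rule cells, 4.75% of its 3726 kept cells and 71.7% of its 247 excitatory cells, against 12.9% of excitatory cells in P2 cortex. With every cell thinned to 5000 UMIs the rule took 75 of 134 excitatory cells (56.0%) in P7 SVZ and 144 of 1537 (9.37%) in P2 cortex. Most excitatory cells of the P7 SVZ tissue thus met the rule. The 2 libraries differ in age, in strain and in the region cut out, and these cannot be told apart. Their rule cells also differ in median depth, at 23376 UMIs in P7 SVZ and 12203 in P2 cortex.

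Between rule cells of P7 SVZ and of P2 cortex 8391 genes were compared, with 845 higher (10.1%) and 592 lower (7.06%) in P7 SVZ and a median ratio of 1.02. The core layer 6 factors lay level: Bcl11b had 216 CPM in P7 SVZ and 208 CPM in P2 cortex (1.04, 0.939 to 1.15). Sox5 had 224 CPM in P7 SVZ and 240.3 CPM in P2 cortex (0.931, 0.846 to 1.02). Tbr1 had 179.6 CPM in P7 SVZ and 187 CPM in P2 cortex (0.959, 0.861 to 1.07). Fezf2 was lower, at 81.6 CPM in P7 SVZ and 181 CPM in P2 cortex (0.451, 0.395 to 0.516), and Crym fell short of the fold at 162 CPM in P7 SVZ and 301 CPM in P2 cortex (0.539, 0.489 to 0.595). Nts and Ikzf2 were almost missing, with 20 and 4 UMIs in P7 SVZ rule cells against 2418 and 118 in P2 members (0.00545, 0.00332 to 0.00844, for Nts and 0.0223, 0.00599 to 0.0587, for Ikzf2), and Npy had 63 CPM in P7 SVZ and 377 CPM in P2 cortex (0.167, 0.147 to 0.19). Foxp2 lay the other way, short of the fold, at 193 CPM in P7 SVZ and 108 CPM in P2 cortex (1.79, 1.57 to 2.03).

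Subplate genes were the other large difference. Cplx3 had 410.1 CPM in P7 SVZ and 41.9 CPM in P2 cortex (9.79, 8.18 to 11.8). Ctgf had 116 CPM in P7 SVZ and 19 CPM in P2 cortex (6.1, 4.65 to 8.15). Nr4a2 had 127 CPM in P7 SVZ and 28.2 CPM in P2 cortex (4.51, 3.59 to 5.72), while Nxph4 went the other way without passing the fold (0.59, 0.476 to 0.729). After thinning, 28.2% (21.7 to 35.5) of P7 SVZ rule cells and 8.19% (5.0 to 12.5) of P2 rule cells had 2 or more UMIs of the subplate group, and unthinned 47.5 and 18.9%. In the 73 P7 SVZ and 134 P2 rule cells with no UMI of the group, Nts still stood at 3.97 CPM in P7 SVZ and 1409 CPM in P2 cortex, Fezf2 at 92.7 CPM in P7 SVZ and 190.3 CPM in P2 cortex, Foxp2 at 254 CPM in P7 SVZ and 95.1 CPM in P2 cortex and Crym at 290.1 CPM in P7 SVZ and 403 CPM in P2 cortex.

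Of the 20 neuron maturation genes compared between the 2 libraries, 3 were higher in P7 SVZ, 3 were lower and 14 passed neither fold, with a median ratio of 1.09. Pcp4 had 2743 CPM in P7 SVZ rule cells and 492 CPM in P2 members (5.57, 5.28 to 5.88). Camk2a, a synaptic kinase, had 42.7 CPM in P7 SVZ and 8.84 CPM in P2 cortex (4.83, 3.22 to 7.52). Nefl had 198 CPM in P7 SVZ and 53.7 CPM in P2 cortex (3.68, 3.12 to 4.37), whereas Sox4 had 190.4 CPM in P7 SVZ and 759.6 CPM in P2 cortex (0.251, 0.232 to 0.271). Sox11 had 194 CPM in P7 SVZ and 710.1 CPM in P2 cortex (0.273, 0.253 to 0.295). Of 27 compared glutamate and GABA receptor genes 11 were higher and 1 lower (median 1.63). Potassium channel genes gave 10 higher and 1 lower of 22 (median 1.56) and sodium and calcium channel genes 8 higher and 1 lower of 21 (median 1.43). Over all 8391 genes compared between these libraries 10.1% were higher and 7.06% lower (median 1.02). Purb, Lars2 and AY036118 were among the 5 highest genes at ratios of 10.8 (9.07 to 13), 21.4 (13.6 to 35.9) and 33.2 (21.1 to 55.4). AY036118 overlaps CT010467.1 on the same strand and Gm42418 on the opposite strand. Slc1a2 was also among the 5 highest, with 653 CPM in P7 SVZ and 57 CPM in P2 cortex (11.5, 9.83 to 13.4), while Aqp4 of astrocytes had 2.81 CPM in P7 SVZ and 0.327 CPM in P2 cortex. Of the 10 astrocyte and radial glia genes 5 were compared, 2 were higher (Slc1a2 and Hes5) and none was lower, and the list summed to 826 CPM in P7 SVZ rule cells and 168 CPM in P2 members. Microglial RNA moved with the library, since the 7 microglial genes summed to 80.7 CPM in P7 SVZ rule cells and 1.64 CPM in P2 members, and 4 of 8 immediate early and dissociation genes were higher (median 2.0), with Egr1 at 59.1 CPM in P7 SVZ and 7.53 CPM in P2 cortex. Their part in these differences was not tested.

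**Figure D5:**
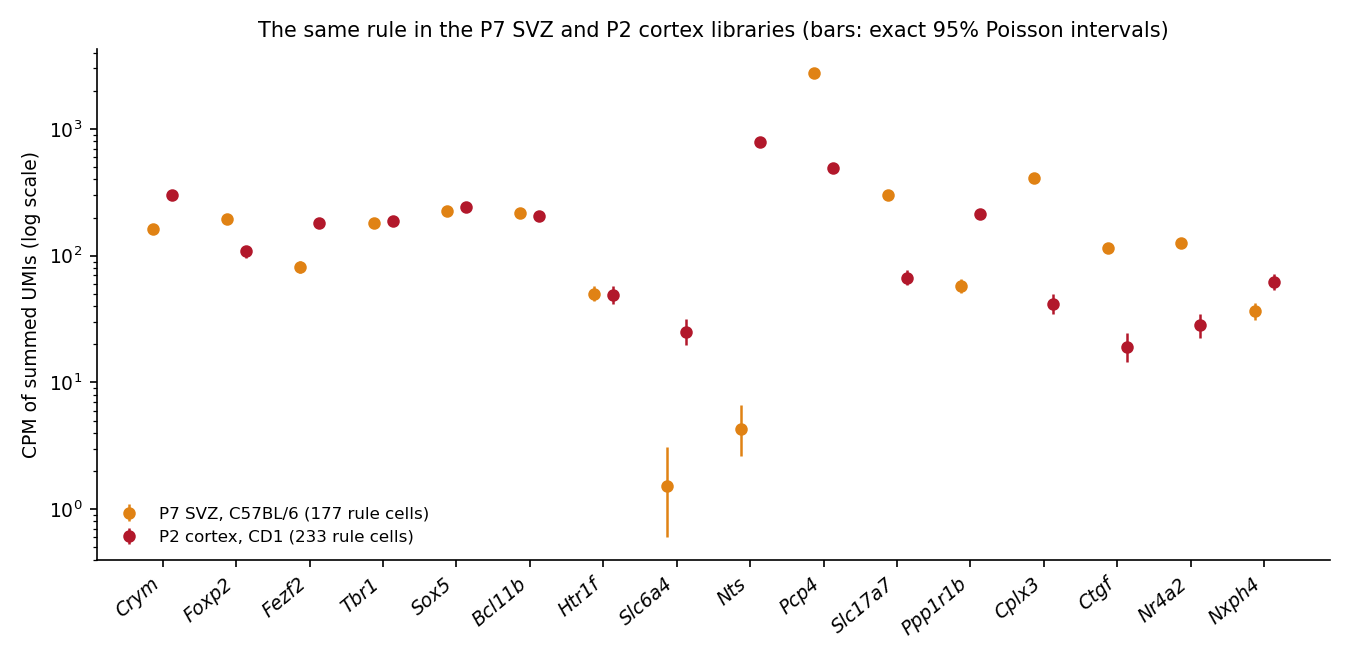
CPM of summed UMIs (y, log scale) of 16 genes in the 177 rule cells of P7 SVZ (orange, left of each pair) and the 233 rule cells of P2 cortex (red, right), with exact 95% Poisson intervals. Tbr1, Sox5, Bcl11b and Htr1f stand level, Pcp4, Slc17a7, Cplx3, Ctgf and Nr4a2 are higher in P7 SVZ, and Nts and Slc6a4 are far lower there.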

How the data were processed

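Each library was deposited by the authors as a matrix of raw UMI counts per gene and cell barcode, made by Cell Ranger (version 3.0.2, per the file headers) on mm10, per the submitters' processing notes. The strand setting of the counting is not given in the sources used here. The labels tie each matrix to 1 sample, and no column was left unmapped (0). Positions are from GENCODE M21, which held 30934 of the 31053 gene IDs.

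Counts were summed over pools of cells and scaled to CPM. Intervals are exact at 95% (Poisson for CPM, conditional binomial for ratios, Clopper-Pearson for shares). A gene at 0 was set to 3 UMIs to give a value for its ratio, and the limit of its level is the exact upper bound. Thinning drew 5000 UMIs per cell without replacement and left out shallower cells, which were 1 member, 83 other excitatory cells, 64 of 285 interneurons and 9 of 32 endothelial and microglial cells. Endothelial cells had at least 3 UMIs of Cldn5 and Flt1, microglial cells at least 3 of C1qa, C1qb and C1qc, and interneurons at least 3 of Gad1 and Gad2, all with at most 1 of Neurod2 and Neurod6. Doublets were called with scrublet in scanpy 1.11.5 at an expected rate of 0.06 (37 of 3283 cells, 1.13%), kept in the main values and left out in an alternative. Python 3.11.15, numpy 2.4.6, scipy 1.17.1 and pandas 2.3.3 were used, and the comparison was tested on simulated data.

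The 7 libraries held 10074763 to 45668007 UMIs in 2127 to 6379 barcodes, and the kept cells had a median of 2813 to 9588 UMIs. In P2 cortex 82 of 3584 barcodes had under 500 genes and 285 were over the mitochondrial limit, and in P7 SVZ 521 and 2540 of 6379.

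The members, the 27 gene lists (395 genes) and the alternatives were chosen with earlier results of these data known. Genes were named by rule: the 15 at each end against the other excitatory cells and the 5 at each end of the other comparisons, ranked by the near bound of the ratio's interval, the 4 at each end of a list, and 15 always given. Genes whose symbols begin with mt-, Rpl, Rps or Gm were not named among the ends. Other named genes, such as Slc17a7, Slc17a6, Ntsr1, Lmo3, Rprm and those given by raw UMIs per cell, were chosen after their values were seen, as was the pool of 92 Bcl11b or Fezf2 cells and the comparison of P7 SVZ rule cells without subplate UMIs. Some genes that the rule names, and a gene that took part in choosing the Cux cells, are not reported here.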

Additional observations from a re-analysis of the deposited data

How the results depend on the processing

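With 1 library per group the values describe these libraries, and the number of cells and UMIs limits what could be seen: a gene absent from the members may be present at up to 0.982 CPM. With the rule applied after thinning to 5000 UMIs there were 144 members in place of 233 and 75 rule cells of P7 SVZ in place of 177 (the second chosen after seeing the data). At a mean of at least 50 CPM fewer genes were compared, and 128 were higher and 60 lower against other excitatory cells, 136 and 85 against Rorb cells, and 185 and 65 against Cux cells. With no filter on low values 5225 were higher and 948 lower than in other excitatory cells, and at a fold of 1.5 the counts were 974 and 495. The other counts stayed within 1.5 times those reported, among them 424 and 220 without called doublets, 409 and 224 with the stricter rule, and 388 and 222 for members without subplate UMIs (chosen after seeing the data). Of 407 ratios of 41 named genes under the 10 alternatives that can move a ratio, 302 stayed within the interval reported, 102 moved outside it and 3 changed direction: with the rule after thinning Ctgf was at 0 and Nr4a2 at 0.654 (0.206 to 1.60), and in members without subplate UMIs Nr4a2 was at 0.980 (0.511 to 1.72). The cause was not tested. The planned pool of Fezf2 and Bcl11b cells had 7 cells, so its comparison and its alternatives were not run. No paired analysis was possible because the labels give no replicate numbers and each group is 1 library.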

Other observations

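Past the 15 genes at the top, several further genes stood more than 13-fold higher in the members than in the other excitatory cells. Ikzf2, the zinc finger factor Helios, had 38.6 CPM in members and 2.66 CPM in other excitatory cells, a ratio of 14.5, and lay in 48 members and 45 other cells. Gdf10, a growth factor of the BMP family, had 24.2 CPM in members and 1.69 CPM in other excitatory cells, a ratio of 14.3. Col23a1, a transmembrane collagen, had 23.2 CPM in members and 1.5 CPM in other excitatory cells, a ratio of 15.5, and Rasgrp1, a Ras activator, 24.9 and 1.89 CPM, a ratio of 13.2. These genes were chosen after their values were seen.

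Counted together in thinned cells, neurotensin (2 or more UMIs), Foxp2 and the subplate group (at least 1 UMI each) divided the 232 members as follows. Neurotensin alone was found in 29 members (12.5%), Foxp2 alone in 55 (23.7%) and the subplate group alone in 37 (15.9%). Foxp2 and the subplate group were found together in 24 members (10.3%), neurotensin and Foxp2 together in 4, neurotensin and the subplate group in 1, and all 3 in 0. The remaining 82 members (35.3%) had none of them, and at 5000 UMIs per cell a gene of low level is often missed.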
